A study of Mus musculus with 24 samples.

Results

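The response of the mouse hippocampus to a night of corticosterone was compared between the ninth and the fifth hour of the following light phase. The comparison takes the log2 ratio of corticosterone over control on 8 dual-channel arrays of hour 9 and sets it against the same ratio on 8 arrays of hour 5. Arrays were chosen by their labelled hour alone. They are 16 of the 24 arrays of the series and carry 32 of its 48 animals, and the other 8 arrays come from hour 1. The question is which genes had a response at hour 5 that had shrunk, gone or turned round by hour 9.

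All animals were male Swiss-Webster mice of 12 weeks that were housed singly and whose drinking water held hydroxypropyl-β-cyclodextrin (0.45%), a carrier that keeps steroids in solution, through the dark phase of 12 hours. Treated mice also had corticosterone in that water, at 100 µg/ml, and control mice had the carrier alone. Mice were killed in the fifth or the ninth hour after lights on, and RNA of the whole hippocampus of 1 control animal (Cy3, green) and 1 treated animal (Cy5, red) shared each array, with no pooling. Control groups were made up of brothers of the treated mice, but whether the animals that share an array were brothers is not given. The animals of a group came from 5 litters, so some of them share a litter, but which ones is not given and the arrays are treated as independent.

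Corticosterone is the main glucocorticoid of the mouse. It binds the mineralocorticoid and glucocorticoid receptors, which are both abundant in hippocampal neurons, and the bound glucocorticoid receptor moves to the nucleus and raises or lowers the transcription of target genes in neurons, glia and vessel cells. When the hormone is cleared the receptor leaves the DNA, and the mRNA of a target returns at a pace set by its own lifetime and by feedback genes such as Fkbp5, while the receptor's own gene is lowered by its ligand.

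Each array held 62976 spots, and 56605 unique probes were tested after control spots were removed and copies averaged. The share of spots well above background was 61.1 to 66.2% in the green channel at hour 5 and 61.3 to 66.4% at hour 9. In the red channel it was 64 to 71.8% and 67.3 to 72.1%. Signals are given as normalized fluorescence intensities in scanner units, and the 32035 probes with a mean of at least 50 units are called bright here, against 24570 dim ones. With 8 arrays an hour, the number of arrays limits the precision. The arrays lay on 3 slides, and slide 1 carried 2 arrays of hour 5 and 4 of hour 9 while slides 2 and 3 each carried 3 and 2. Control channels were green on every array, so an effect within an hour holds any constant dye bias, whereas the change between hours and the change within either treatment group do not. In whole tissue, fewer cells of a type and less RNA per cell cannot be told apart.

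Markers of hippocampal neurons were present as the tissue label has it. All 12 were bright, from Camk2a, a kinase of excitatory synapses, at 58970 units to C1ql2, a secreted protein of dentate granule cells, at 326.8 units. Of the 12 choroid plexus markers 5 were dim (Folr1, Otx2, Slc4a5, Calml4 and Kcne2), and the transport protein Ttr, which that tissue makes in large amounts, was at 359.6 units. Gbx2, a thalamic transcription factor, was dim, as were S100a8, S100a9 and Ngp of blood granulocytes. The other thalamus and blood markers with a probe were bright, 5 of 6 and 6 of 9. They were led by Rora at 4530 units and by Hba-a1, a globin gene of red cells, at 25900 units.

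The corticosterone effect differed between the hours (limma, Benjamini-Hochberg adjusted p under 0.05) at 46 of 56605 probes, which is 0.0813%. It was more negative at hour 9 at 40 of them and more positive at 6. An unadjusted p under 0.05 was reached by 2945 probes, of which 1382 were more negative. Among bright probes 43 passed (0.134%), 39 with a more negative and 4 with a more positive effect, and 38 of these carry the names of 35 genes. Their changes ran from 0.22 to 1.78 log2 units in size, with a median of 0.52. For comparison, the effect within the hour passed at 18.1% of all probes at hour 5 and at 13.9% at hour 9.

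The number of probes with a changed corticosterone effect depends on slides 1 and 3. In the fit without slide 1, which leaves 6 arrays of hour 5 and 4 of hour 9, 0 probes passed in limma. There 2532 probes had an unadjusted p under 0.05, among them all 46 in their own direction. Without slide 3, 6 probes passed. Without slide 2 it was 50. With slide as a block in the fit, Nr3c1, Cmtm5, Alpl, Klf9, Smox, Prdm8 and the second Fkbp5 probe missed the threshold, and from log ratios alone with the same block so did Gpr161, Gm11627, Olfml2b, Inpp5j, Hip1, Fgfr3 and both Pdzd2 probes. Within each of the slides the change had the same direction at all 43 bright probes, and the median change of the 39 fallers, the bright probes with a more negative effect, was -0.66 within slide 1, -0.36 within slide 2 and -0.60 within slide 3. Because the same arrays chose these probes, their direction without slide 1 and the agreement within slides describe them and are no further support. The share of all bright probes with such agreement within slides is not given. Single arrays move the count too, to 29 without replicate 8 of hour 5, to 30 without replicate 1 of hour 5 and to 70 without replicate 3 of hour 5. When only the bright probes were tested the count was 94, with 70 more negative and 24 more positive, and with only probes well above background it was 82.

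The per-array log2 ratios of the hours did not overlap at 22 of the 43 bright probes, against 0.147% of all bright probes. Over the arrays, the exact permutation p (two-sided) of the 43 was at most 0.0028, and the smallest that 8 against 8 arrays can give is 0.000155. The same arrays chose these probes, so both the overlap and the permutation p describe them and are no further support. By the sign of the effect at each hour, 9 bright probes kept their direction and shrank, 1 grew, 13 pointed in opposite directions with both hours past the threshold, and 20 pointed in opposite directions with at most 1 hour past it. These signs hold any dye bias, so a small effect of either sign may be placed on the wrong side of 0, while the change itself is free of it.

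**Figure D1:**
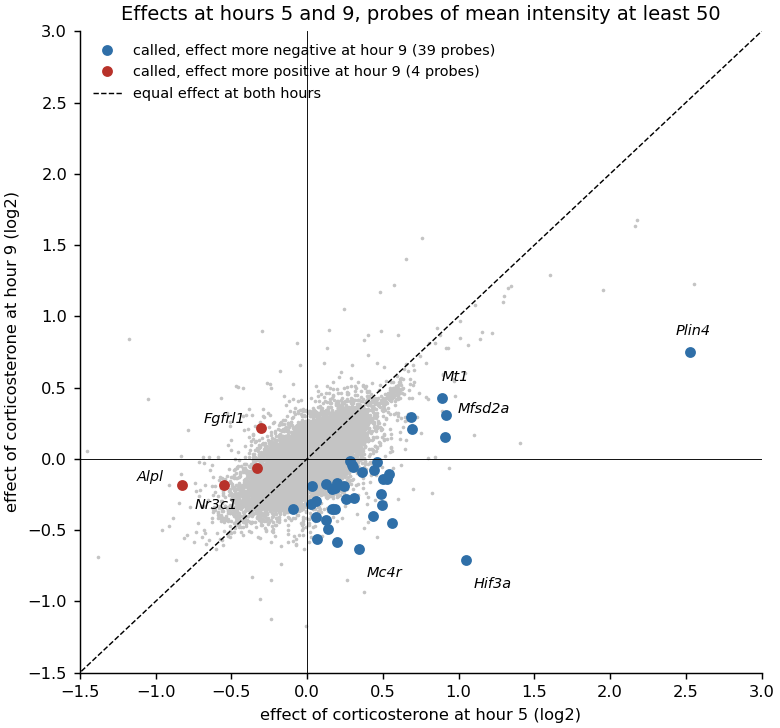
Corticosterone effect (log2) at hour 5 on the horizontal and at hour 9 on the vertical axis for the 32035 bright probes in grey, with the 39 probes whose effect was more negative at hour 9 in blue and the 4 with a more positive effect in red. The dashed line marks equal effects, and blue points lie below it, many of them to the right of 0 and under 0 in height.

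Glucocorticoid receptor targets come first. Their list was made with earlier results of these data known, so its counts are partly set by that choice and are a description. The list holds 48 genes taken here as targets of the receptor. Among them are Txnip and Slc2a1, which the paper counts as not linked to the glucocorticoid response before. Of the 48 genes, 10 passed, against 0.134% of bright probes. They were Mt2, Plin4, Mfsd2a, Mt1, Tsc22d3, Zbtb16, Gjb6, Fkbp5, Hif3a and Klf9. All 10 had a more negative effect at hour 9 and kept that sign under each way of scaling the arrays, but Klf9 missed the threshold in 25 of the 39 alternatives run. The median change over the list was -0.24, against 0.0039 over all bright probes, and 29 of the 48 had an unadjusted p under 0.05 with a more negative effect, against 2.09% of bright probes, and 0 with a more positive one (2.54%). The list's median effect was 0.57 at hour 1, 0.20 at hour 5 and -0.03 at hour 9. The number of its genes raised past the threshold was 24 at hour 5 (9.3% of bright probes were) and 8 at hour 9 (6.97%), when 9 were lowered past it (6.84%).

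**Figure D2:**
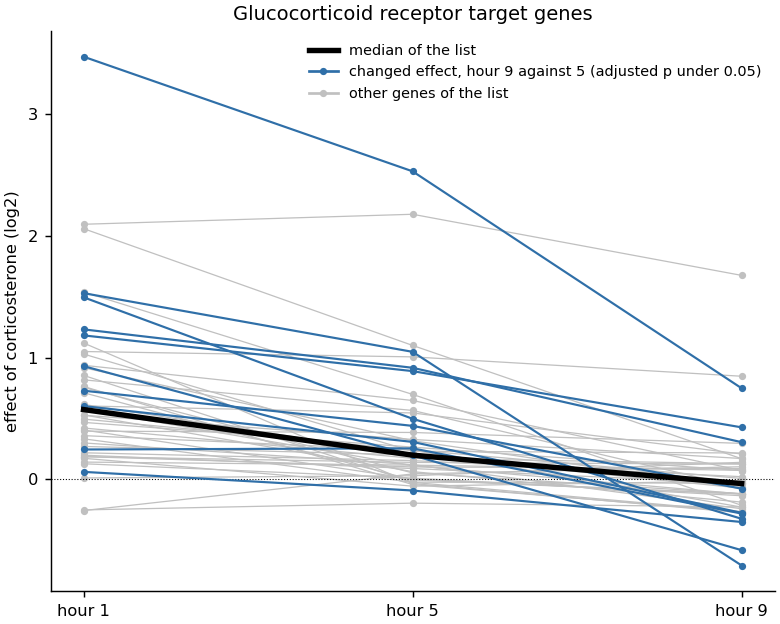
Corticosterone effect (log2) at hours 1, 5 and 9 for the 47 bright genes of the receptor target list, with 1 line a gene. The 10 genes whose effect differed between hours 5 and 9 are in blue and the median of the list is in black, and it passes from 0.20 at hour 5 to -0.03 at hour 9.

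The metallothioneins Mt1 and Mt2 are small proteins that bind zinc and copper, and their adjoining genes are classic targets of the receptor. For Mt2 (probe A_51_P246317) the log2 ratio of the 8 arrays ran from 0.13 to 1.03 (median 0.38) at hour 5 and from -0.67 to -0.17 (median -0.29) at hour 9. Every array of hour 5 was above 0 and every array of hour 9 below it. The effect was 0.50 at hour 5 (adjusted p 6.64e-06) and -0.32 at hour 9 (adjusted p 0.00296), a change of -0.82 ± 0.113 (SE) with an adjusted p of 6.34e-05. In intensities, control channels averaged 52710 ± 6930 units (SD, n = 8) at hour 5 and 68470 ± 5990 at hour 9, and corticosterone channels 74470 ± 10700 and 54760 ± 5640. The treated level thus passed from above to below that of controls. Within the slides the Mt2 change was -1.35, -0.52 and -0.69. For Mt1 (probe A_66_P111660) the effect shrank without turning round. Its ratios ran from 0.68 to 1.21 (median 0.87) at hour 5 and from 0.21 to 0.66 (median 0.42) at hour 9, again without overlap, and all 8 of each hour were above 0. The Mt1 effect of 0.89 became 0.43, a change of -0.46 ± 0.0813 (adjusted p 0.00143).

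Plin4 had the largest change of the bright probes that passed. It encodes perilipin 4, a coat protein of lipid droplets. The log2 ratio at probe A_51_P495780 ran from 1.60 to 3.41 (median 2.58) at hour 5 and from -0.02 to 1.31 (median 0.66) at hour 9. The hours did not overlap, and 7 of 8 arrays of hour 9 were still above 0. Its effect passed from 2.53 to 0.75, by -1.78 ± 0.269 (adjusted p 0.000264), and the change within slides was -2.33, -1.10 and -2.32. Corticosterone channels changed by -1.89 (adjusted p 1.41e-06) and control channels by -0.10 (adjusted p 0.95). In intensity the treated channels averaged 835.2 ± 334 units (SD, n = 8) at hour 5 and 216 ± 67.4 at hour 9, beside 133.2 ± 14.8 and 126.3 ± 30.2 in control channels.

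Mfsd2a, the carrier that takes lysophospholipids with docosahexaenoic acid across the blood-brain barrier, kept a raised level at both hours. Ratios at probe A_51_P279437 ran from 0.69 to 1.18 (median 0.92) at hour 5 and from 0.04 to 0.65 (median 0.30) at hour 9, all above 0 and without overlap. Its effect shrank from 0.92 to 0.31 (change -0.61 ± 0.103, adjusted p 0.00118). Gjb6, which encodes connexin 30 of astrocyte gap junctions, was raised at hour 5 and did not pass against controls at hour 9. Its ratios ran from 0.19 to 0.73 (median 0.46) at hour 5 and from -0.23 to 0.03 (median -0.06) at hour 9, and the effect of 0.44 gave way to -0.08 (adjusted p 0.507), a change of -0.52 ± 0.103 (adjusted p 0.00769). The Gjb6 level fell in corticosterone channels by 0.63 log2 units (adjusted p 9.8e-06), while control channels moved by -0.11 (adjusted p 0.863).

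Tsc22d3 encodes GILZ, the leucine zipper protein that carries part of the anti-inflammatory action of glucocorticoids. At probe A_55_P1989061 the ratios ran from -0.06 to 0.68 (median 0.12) at hour 5 and from -0.79 to -0.31 (median -0.58) at hour 9, with no overlap. The effect at hour 5 missed the threshold (0.20, adjusted p 0.149) and at hour 9 the level was lower in treated mice (-0.58, adjusted p 3.87e-05), so that the change was -0.78 ± 0.14 (adjusted p 0.0024). A second Tsc22d3 probe (A_55_P2741276) had effects of 0.49 and -0.25 and a change of -0.73 ± 0.134 (adjusted p 0.00296). Another Tsc22d3 probe was dim and had the opposite sign without passing. Both bright probes fell in corticosterone channels, by 0.58 (adjusted p 0.00419) and 0.57 (adjusted p 0.00264).

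Fkbp5 encodes a co-chaperone of the receptor that lowers its affinity for hormone, and its induction closes a short feedback loop. Ratios at probe A_55_P1952379 ran from 0.01 to 0.67 (median 0.26) at hour 5 and from -0.41 to -0.14 (median -0.27) at hour 9. All 8 arrays of hour 5 were above 0 and all 8 of hour 9 below it. The effect was 0.31 (adjusted p 0.00429) and then -0.27 (adjusted p 0.0138), a change of -0.58 ± 0.115 (adjusted p 0.00784). The second probe (A_52_P481493) gave 0.12 and -0.43, with a change of -0.55 ± 0.113 (adjusted p 0.0255) and ratios that overlapped between the hours.

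The promoters of the named genes that passed, in either direction, were read for letters that bind known factors, since members of the receptor's target list were among them. RefSeq windows of 300 bases, most of each before an annotated gene start and the rest after it (build GRCm38.p6), were at hand for 28 of the 35 named genes as 39 windows. The whole glucocorticoid response element, AGAACA and then TGTTCT after 3 bases of any kind, was in 0 of the 39 windows and in 3 of all 32851 (0.00913%). Its core AGAACA, which the whole element contains, was in 4 windows, those of Tsc22d3, Arhgef3, Alpl and Gm11627 (10.3%) against 19% of all, with both strands searched for every motif. The E-box CACGTG, which reads the same on both strands, was in 3 windows, those of Fgfrl1, Fkbp5 and Dhx33 (7.69%) against 7.15%. The D-box TTATGTAA and the cAMP response element TGACGTCA were in 0 windows, against 0.938% and 1.79% of all. The Tsc22d3 window is printed because it is the one among the 10 receptor targets with the core, and those of Fkbp5 and Fgfrl1 because they carry the E-box in genes that turned in opposite directions. Capitals mark the motif (in Tsc22d3 it reads TGTTCT, the core on the other strand), and each window is written 5′ to 3′ along the gene's strand, minus for Tsc22d3 and Fkbp5 and plus for Fgfrl1.
Tsc22d3, chrX:140600473-140600772: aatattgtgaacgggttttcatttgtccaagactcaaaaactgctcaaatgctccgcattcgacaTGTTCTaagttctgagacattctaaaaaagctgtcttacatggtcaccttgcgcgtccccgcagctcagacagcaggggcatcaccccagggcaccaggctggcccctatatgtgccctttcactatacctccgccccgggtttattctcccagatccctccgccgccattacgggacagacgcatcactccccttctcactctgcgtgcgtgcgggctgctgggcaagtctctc
Fkbp5, chr17:28486100-28486399: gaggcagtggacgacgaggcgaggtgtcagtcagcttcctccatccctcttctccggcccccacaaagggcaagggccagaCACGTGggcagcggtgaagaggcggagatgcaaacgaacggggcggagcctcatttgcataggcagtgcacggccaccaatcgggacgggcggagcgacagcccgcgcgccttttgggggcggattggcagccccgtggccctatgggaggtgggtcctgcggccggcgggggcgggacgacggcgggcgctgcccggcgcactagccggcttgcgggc
Fgfrl1, chr5:108693979-108694278: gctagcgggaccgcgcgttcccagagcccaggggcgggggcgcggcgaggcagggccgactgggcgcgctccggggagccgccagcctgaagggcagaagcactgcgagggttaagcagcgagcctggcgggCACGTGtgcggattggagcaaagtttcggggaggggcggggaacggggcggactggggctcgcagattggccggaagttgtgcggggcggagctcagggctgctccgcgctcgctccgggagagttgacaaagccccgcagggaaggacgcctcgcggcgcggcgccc
A match is a description of letters, and a window without one says nothing of sites elsewhere in the gene.

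Hif3a, a member of the hypoxia-inducible factor family that lacks the C-terminal activation domain of its relatives, had widely spread arrays. Its ratios at probe A_55_P2015541 (mean intensity 206 units) ran from -0.28 to 2.32 (median 1.14) at hour 5 and from -1.35 to 0.19 (median -0.69) at hour 9, and 7 of 8 arrays of hour 9 were below the lowest of hour 5. The effect went from 1.05 (adjusted p 0.00141) to -0.71 (adjusted p 0.0385), a change of -1.75 ± 0.323 (adjusted p 0.00859). Its second probe was dim and did not pass. Zbtb16, a zinc finger repressor of transcription, turned from 0.26 to -0.28 (change -0.54 ± 0.0984, adjusted p 0.0024) without overlap of the ratios, and its weaker second probe had effects of -0.08 and -0.59 and a change of -0.52 (adjusted p 0.116), so that it passed at hour 9 alone. Klf9, a Krüppel-like factor raised by glucocorticoids in neurons, lay near control at hour 5 (-0.09, adjusted p 0.108) and below it at hour 9 (-0.35, adjusted p 3.91e-08). Of the bright probes that passed, Klf9 is the one whose effect kept its sign and grew, by -0.26 ± 0.062 (adjusted p 0.0471).

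**Figure D3:**
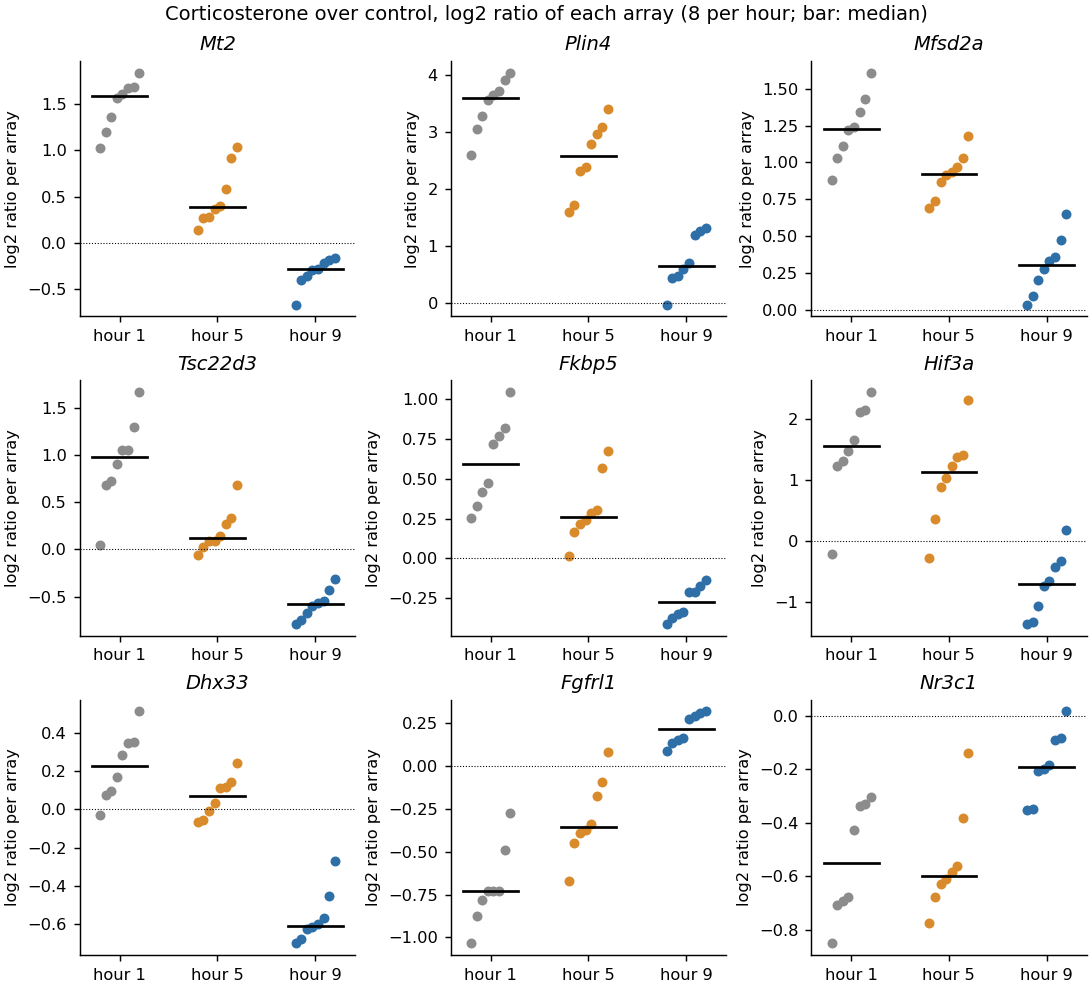
Log2 ratio of corticosterone over control on each array at hours 1, 5 and 9 for 9 genes, with a dot per array and a bar at the median of 8. In Mt2, Fkbp5 and Dhx33 the dots of hour 9 lie below those of hour 5 and below 0, in Plin4 and Mfsd2a they lie below those of hour 5 but mostly above 0, and in Fgfrl1 they lie above.

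Next on the target list after the 10 were Sdc4, a cell surface proteoglycan, with a change of -0.58 (adjusted p 0.0516), Wipf3, an actin regulator, with -0.34 (adjusted p 0.0695), and the kinase Map3k6 with -0.91 (adjusted p 0.182). Sult1a1, a sulfotransferase, was among the most strongly raised targets, with effects of 2.18 at hour 5 and 1.68 at hour 9, but its change of -0.50 missed the threshold (adjusted p 0.242).

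Receptors and co-chaperones were a list of 13 genes, of which 2 passed, Fkbp5 and Nr3c1, against 0.134% of bright probes. The median change of the list was 0.01. Nr3c1 is the glucocorticoid receptor itself and moved the other way from its targets. Its ratios at probe A_55_P1967885 ran from -0.78 to -0.14 (median -0.60) at hour 5 and from -0.35 to 0.02 (median -0.19) at hour 9. The hours overlap, with 3 arrays of hour 9 above the highest of hour 5, and 0 of 8 arrays of hour 5 and 1 of 8 of hour 9 lie above 0. The lowering of -0.55 (adjusted p 3.12e-10) shrank to -0.18 (adjusted p 0.0177), a change of 0.36 ± 0.0805 (adjusted p 0.0255). Within the slides it was 0.61, 0.09 and 0.35, so that slide 2 holds little of it. Neither channel passed alone: corticosterone channels moved by 0.17 (adjusted p 0.3) and control channels by -0.20 (adjusted p 0.482). A second Nr3c1 probe had a change of 0.29 (adjusted p 0.666). The mineralocorticoid receptor Nr3c2 moved by 0.27 (adjusted p 0.331), which missed the threshold.

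Fgfrl1 is a receptor of the fibroblast growth factor family without the kinase domain, and the 1 named gene that turned from lowered to raised with both hours past the threshold. Ratios at probe A_55_P2152872 ran from -0.67 to 0.08 (median -0.36) at hour 5 and from 0.09 to 0.32 (median 0.22) at hour 9. At hour 5 7 of 8 arrays were below 0, at hour 9 all 8 were above 0, and the hours do not overlap. The effect passed from -0.30 (adjusted p 0.000554) to 0.22 (adjusted p 0.0161), by 0.52 ± 0.0937 (adjusted p 0.00228), and within the slides by 0.81, 0.32 and 0.47. Its level rose in corticosterone channels by 0.44 (adjusted p 0.000777). Fgfr3, a kinase receptor of the same family that astrocytes express, moved the other way, from 0.31 to -0.05 (change -0.36, adjusted p 0.0255).

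The remaining bright probes with a more positive effect were Cmtm5 and Alpl. Cmtm5, a membrane protein of the MARVEL family, was lower in treated mice at hour 5 (-0.33, adjusted p 1.66e-08) and near control at hour 9 (-0.06), with a change of 0.27 ± 0.0595 (adjusted p 0.017). Its second probe missed the threshold at hour 5 (-0.12, adjusted p 0.0626) and in its change of 0.20 (adjusted p 0.515). Alpl encodes the tissue-nonspecific alkaline phosphatase and shrank from -0.82 to -0.18 (change 0.64, adjusted p 0.0309), but its second probe, at 78.37 units, moved by -0.10 (adjusted p 1).

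The named genes outside the target and receptor lists follow by the role of their protein, an order made after they had passed and with no group tested. Mc4r is a melanocortin receptor known for its part in energy balance. The Mc4r ratios (probe A_55_P2183884) ran from -0.20 to 0.80 (median 0.41) at hour 5 and from -1.12 to -0.10 (median -0.54) at hour 9, and 7 of 8 arrays of hour 9 lay below the lowest of hour 5. Its effect turned from 0.34 (adjusted p 0.0416) to -0.63 (adjusted p 0.000246), a change of -0.97 ± 0.173 (adjusted p 0.0024). Gpr161, a receptor of the primary cilium that restrains hedgehog signalling, turned from 0.18 to -0.21 (change -0.39 ± 0.0752, adjusted p 0.00435). Proteins that regulate small GTPases are next. Arhgap39, a GTPase-activating protein, had ratios from -0.02 to 0.51 (median 0.25) at hour 5 and from -0.40 to -0.07 (median -0.16) at hour 9, without overlap, and a change of -0.44 ± 0.0698 (adjusted p 0.000264). Arhgef3, a guanine nucleotide exchange factor, turned from 0.16 to -0.21, by -0.37 ± 0.0682 (adjusted p 0.00228). Its second probe passed at hour 9 alone (0.09, adjusted p 0.317, and then -0.21, adjusted p 0.0211), with a change of -0.30 (adjusted p 0.329). Acap2, which acts on Arf6 in membrane traffic, was near control at hour 5 (0.06) and below it at hour 9 (-0.29, adjusted p 5.62e-06), with a change of -0.35 ± 0.0658 (adjusted p 0.00228). Sh3bp5, an exchange factor for Rab11, and Hip1, an adaptor in clathrin-mediated uptake, went from raised to near control, by -0.30 and -0.34 (adjusted p 0.0194 and 0.0255). The phosphoinositide phosphatase Inpp5j had the smallest change of the bright probes that passed, -0.22 ± 0.05 (adjusted p 0.0195), with ratios that did not overlap.

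Atp10a, a flippase that moves phospholipids across the membrane, had a median ratio of 0.45 at hour 5 and of -0.40 at hour 9. All 8 arrays of hour 5 were above 0 and all 8 of hour 9 below it, with a change of -1.01 ± 0.19 (adjusted p 0.00587). A second probe had effects of 0.80 and 0.01 and a change of -0.79 (adjusted p 0.0734), and another was dim and of the opposite sign without passing. Spns2 exports sphingosine-1-phosphate from cells and turned from 0.19 (adjusted p 0.001) to -0.17 (adjusted p 0.00479), by -0.37 ± 0.0653 (adjusted p 0.00143). Gpt2, the mitochondrial alanine aminotransferase, had ratios from 0.05 to 0.52 (median 0.43) at hour 5 and from -0.22 to 0.04 (median -0.09) at hour 9. Those ratios did not overlap, and the Gpt2 effect ended near 0 (-0.09, adjusted p 0.248) after a change of -0.45 ± 0.0757 (adjusted p 0.000862). Its second probe was not raised at hour 5 (-0.05, adjusted p 0.697) and had an effect of -0.23 at hour 9 and a change of -0.18 (adjusted p 1). Smox, which oxidizes spermine, also passed with a shrinking effect, but its change was -0.03 within slide 2, against -0.63 and -0.53 in slides 1 and 3, and it missed the threshold in 21 of the 39 alternatives.

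Kirrel2, an immunoglobulin-family adhesion protein, shrank from 0.91 to 0.15 (change -0.76 ± 0.143, adjusted p 0.00305), without overlap of the hours. Its second probe, just under the intensity limit at 49.97 units, was still raised at hour 9 (adjusted p 0.00118). The change at that probe did not pass (adjusted p 0.907), and its ratios overlapped between the hours. The PDZ domain protein Pdzd2 passed at 2 probes, with changes of -0.48 (adjusted p 0.0194) and -0.49 (adjusted p 0.0323), and slide 2 held little of the first (-0.08, against -0.79 and -0.60 in slides 1 and 3). Olfml2b, a secreted olfactomedin-domain protein, changed by -0.52 ± 0.104 (adjusted p 0.00859) and Card6, a protein with a caspase recruitment domain, by -0.54 ± 0.0994 (adjusted p 0.00305). The predicted gene Gm11627, for which no role is given here, went from 0.54 to -0.11 (change -0.65 ± 0.124, adjusted p 0.00587).

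Several genes had no effect past the threshold at hour 5 and a lowered level at hour 9. Dhx33, an RNA helicase of the DEAH-box family, had the second smallest p of all probes. Its ratios at probe A_55_P1999314 ran from -0.06 to 0.24 (median 0.07) at hour 5 and from -0.70 to -0.27 (median -0.61) at hour 9, without overlap. The effect was 0.06 (adjusted p 0.503) and then -0.56 (adjusted p 8.3e-09), a change of -0.63 ± 0.091 (adjusted p 8.35e-05). Its second probe moved by -0.40 (adjusted p 0.242). Cables1, an adaptor that links Cdk5 with Abl kinases, had effects of 0.14 (adjusted p 0.193) and -0.49 (adjusted p 4.94e-06) and a change of -0.63 ± 0.107 (adjusted p 0.00118). Acap2, Inpp5j and Klf9, given before, and Prdm8, a transcriptional repressor of the PR domain family, shared this course, as did Card6, Olfml2b, the first Tsc22d3 probe and the second Fkbp5 probe. Other bright probes of some of these genes took another course, raised at hour 5 and not past the threshold at hour 9: the effects were 0.24 (adjusted p 0.00391) and then -0.02 at a second Acap2 probe, 0.23 (adjusted p 0.0446) and -0.07 at a second Inpp5j probe, and 0.41 (adjusted p 0.000231) and -0.03 at a second Olfml2b probe. The second Dhx33 probe (0.09 and then -0.31, adjusted p 0.00515) and one more Acap2 probe (-0.16 and -0.33, adjusted p 0.00842) had the course of the named ones.

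Which group moved between the hours was read from each channel on its own. Channels of hours 5 and 9 lie on different arrays, so these moves carry differences between arrays and slides. Over all probes, control channels differed between hours 5 and 9 at 0.0318% and corticosterone channels at 0.668%. Of the 39 bright probes with a more negative effect at hour 9, all 39 were lower at hour 9 than at hour 5 in corticosterone channels, 33 of them past the threshold (0.712% of bright probes). In control channels 34 were higher at hour 9, 13 with an unadjusted p under 0.05 (2.57%) and 1 past the threshold (0.0187%). The median was -0.42 in corticosterone and 0.12 in control channels. That 1 probe was Cables1, which rose in control channels by 0.46 (adjusted p 0.0172) and moved by -0.17 in corticosterone channels (adjusted p 0.487). For Mt2 the move was 0.38 in control (adjusted p 0.141) and -0.44 in corticosterone channels (adjusted p 0.00778). These probes were chosen by the difference of the same channels, so the counts describe them and are no separate test. Of the 4 bright probes with a more positive effect, Fgfrl1 and Cmtm5 rose in corticosterone channels, where 0.403% of bright probes did.

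**Figure D4:**
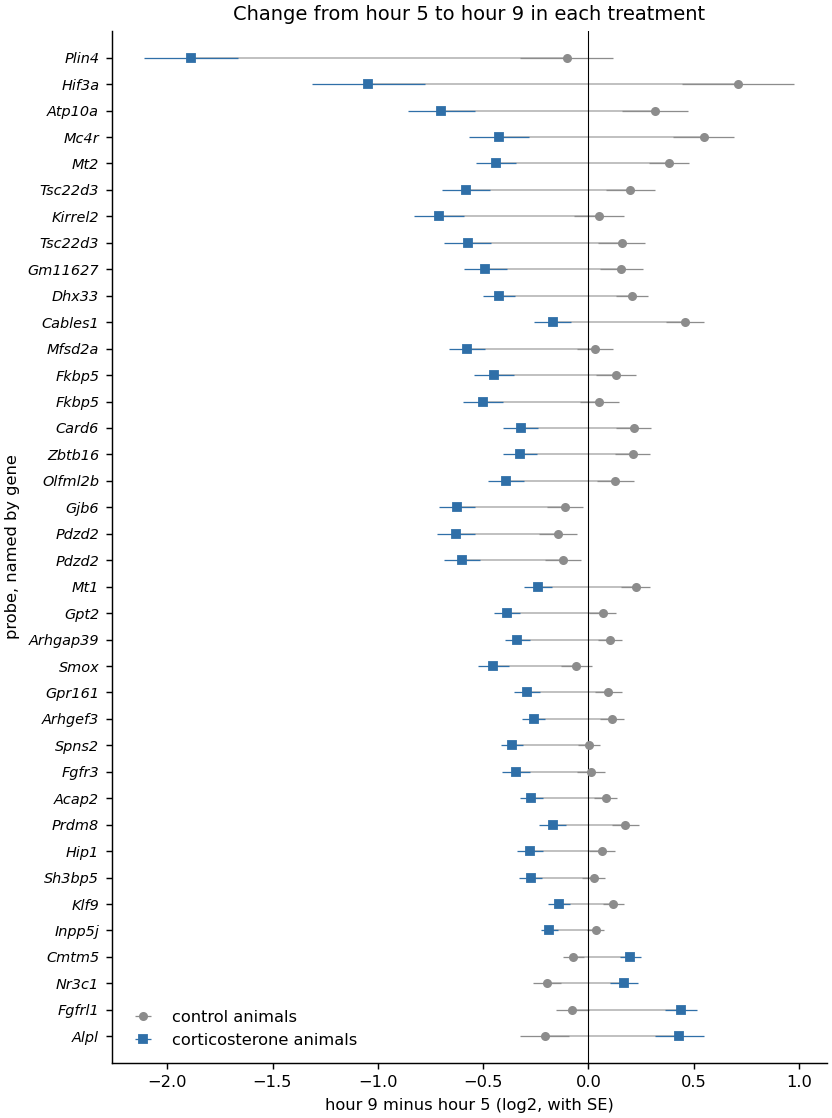
Difference of hour 9 minus hour 5 (log2, with SE) in control channels (grey circles) and in corticosterone channels (blue squares) for the 38 bright probes with a gene name. Blue squares lie further from 0 than grey circles for most genes, and Cables1 is the gene whose control channels passed the threshold.

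Hour 1 animals took no part in the change between hours 5 and 9 other than in normalization and in the estimate of the spread, so they show where these genes started. Of the 39 fallers, 34 were raised past the threshold at hour 1, against 10.2% of bright probes, and all 39 had an effect above 0. All 4 bright probes with a more positive effect were lowered at hour 1, against 9.87%. The median effect of the 39 was 0.55 at hour 1, 0.31 at hour 5 and -0.21 at hour 9. At hour 5, 28 of the 39 were raised (9.3% of bright probes), and at hour 9 5 were raised (6.97%) and 23 lowered (6.84%). The effects of hours 5 and 9 share their arrays with the change that chose the probes and are a description. Single genes started high: Plin4 at 3.47, Hif3a at 1.53, Mt1 at 1.18 and Tsc22d3 at 0.93 log2 units at hour 1.

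A wider view that does not choose on the later hours takes the bright probes with an effect of at least 0.5 log2 units past the threshold at hour 1. There were 349, with 231 raised and 118 lowered. Turned to the direction of hour 1, their median effect was 0.634 at hour 1, 0.465 at hour 5 and 0.21 at hour 9. The hour 1 value is raised by the choice itself, and those of hours 5 and 9 are not, though any constant dye bias is shared by all 3 hours. 321 of the 349 (92%) had a smaller effect at hour 9 than at hour 5, and 73 pointed the other way at hour 9, 15 of them past the threshold. The number that passed in the direction of hour 1 was 268 at hour 5 and 131 at hour 9, while 20% and 13.8% of bright probes passed in either direction. For 23 the change between hours passed (0.134% of bright probes), each of them against the direction of hour 1. Probes are not independent replicates, so the spread over arrays is the measure here. The median over the 349 ran from 0.235 to 0.636 on the 8 arrays of hour 5, with a median of 0.478, and from 0.157 to 0.295 on those of hour 9, with a median of 0.194. The ranges overlap, with the lowest array of hour 5 under the highest of hour 9. The spread was 0.123 (SD) at hour 5 and 0.0498 at hour 9.

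**Figure D5:**
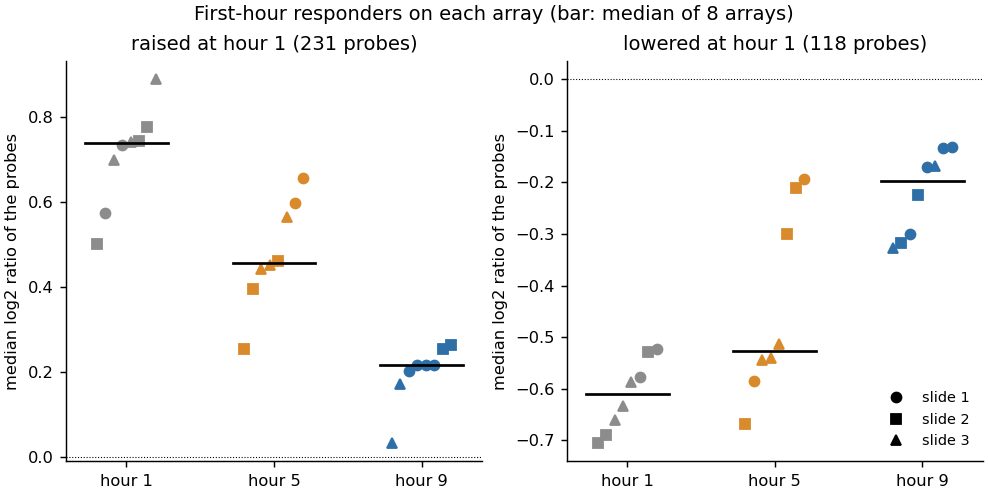
Median log2 ratio per array over the probes raised (231) and lowered (118) at hour 1, at hours 1, 5 and 9, with a symbol for each slide. Both medians approach 0 from hour 5 to hour 9, where the 8 arrays lie closer together than at hour 5.

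Other pathways were read from lists, each with 1 probe a gene, beside the median of 0.0039 over all bright probes and the 0.134% that passed. At an unadjusted p under 0.05, 2.09% of bright probes were more negative and 2.54% more positive. Some members, such as Nfkbia, Per1, Ddit4, Cdkn1a and Plin4, are also on the receptor target list. The NF-kappaB pathway, which the receptor restrains, had 0 of 14 genes past the threshold and a median of -0.05, with 3 genes at an unadjusted p under 0.05 in the negative and 2 in the positive direction. Its smallest p values belonged to Bcl3 (0.55, adjusted p 0.331) and Nfkbiz (-0.32, adjusted p 0.551). Clock genes and their outputs gave 0 of 21 and a median of -0.04, with 4 negative and 0 positive at the unadjusted level. The period genes Per1 and Per2 moved by -0.24 (adjusted p 0.2) and -0.29 (adjusted p 0.348). In control channels 2 of the 21 differed between the hours, the repressor Ciart by 0.88 and the output gene Dbp by 0.76, against 0.0318% of all probes. Immediate early genes of neuronal activity gave 0 of 24, with a median of -0.01 and 0 at an unadjusted p under 0.05. Homer1 and Ier5 had the smallest p there, at 0.11 and 0.16 log2 units.

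Of 24 genes that restrain mTOR or belong to the FoxO pathway 0 passed, with 4 negative and 1 positive at an unadjusted p under 0.05 and a median of -0.01. Irs2, an insulin receptor substrate, moved by -0.19 (adjusted p 0.435) and Ddit4, a brake on mTOR, by -0.23 (adjusted p 0.697). Cell cycle arrest and death genes had 0 of 18 past the threshold, 4 negative and 2 positive at the unadjusted level, and a median of 0.01. Cdkn1a, the cyclin-dependent kinase inhibitor, had effects of 2.06, 1.10 and 0.17 at hours 1, 5 and 9, but its change of -0.93 ± 0.249 missed the threshold (adjusted p 0.287). Lipid, ketone and energy genes gave 1 of 28, Plin4, with 7 negative and 0 positive at the unadjusted level and a median of -0.03. The lipase Pnpla2 moved by -0.40 (adjusted p 0.141) and the ceramidase Acer2 by -0.74 (adjusted p 0.155).

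Interferon-stimulated genes had 0 of 22 past the threshold, 0 negative and 1 positive at the unadjusted level, and a median of -0.19, with Gbp2 at 0.59 (adjusted p 0.907) and Ifi27 at -0.26. Heat and cold shock genes gave 0 of 17, with 0 at an unadjusted p under 0.05 and a median of -0.03, and Bag3 and Cirbp moved by 0.18 and 0.15. Endoplasmic reticulum stress genes gave 0 of 18, 2 negative and 0 positive at the unadjusted level, and a median of -0.06, with Dnajc3 and Creld2 both at -0.24 (adjusted p 0.49 and 0.91).

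The study itself sorted genes by how long their response lasted, on these same samples, so counts for its lists are not independent evidence. Of 7 genes it names as reversed 3 passed (0.134% of bright probes did), Fgfrl1, Mc4r and Fkbp5, with a median change of -0.46. The other members moved in the negative direction and missed the threshold: Paqr5, a membrane progestin receptor, by -1.01 (adjusted p 0.0695), Smim3 by -0.46 (adjusted p 0.0921), the NF-kappaB inhibitor Nfkbia by -0.22 (adjusted p 0.913) and the death receptor Fas by -0.44 (adjusted p 0.96). Of 27 genes the study names as intermediate with a probe 3 passed (Mt2, Gjb6 and Alpl), 14 were negative and 7 positive at an unadjusted p under 0.05 (2.09% and 2.54% of bright probes), and the median was -0.32. Intermediate means there that the gene was back at its basal level at hour 9. Mt2 was instead lowered at hour 9 here (-0.32, limma adjusted p 0.00296). Tekt4 (-0.67) and Tmem52 (-1.06) came next after Sdc4, at an adjusted p of 0.086 each. Of 27 named as long-lasting 2 passed (Plin4 and Mt1), 7 were negative and 1 positive at the unadjusted level, and the median was -0.13, with Lao1 next at -1.32 (adjusted p 0.116).

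Cell type markers mostly did not pass, and of all bright probes 0.134% did. Astrocyte markers gave 2 of 11, Gjb6 and Fgfr3, while the median of the list was 0.0039 and the others had an adjusted p of 1, among them Aqp4 (0.16) and Aldh1l1 (-0.09). The summed intensity of the astrocyte list, led by Aldoc, had a median log2 ratio of 0.10 at hour 5 and 0.07 at hour 9. Neuron markers gave 0 of 12 (median 0.02, 1 negative at an unadjusted p under 0.05), with the adhesion protein Amigo2 at -0.56 (adjusted p 0.183), Spink8 at -0.13 (adjusted p 0.972) and Camk2a as the brightest probe. Their sum had a median log2 ratio of -0.06 and then 0.05. Interneuron markers gave 0 of 8 with 0 at the unadjusted level and a median of -0.03 (Vip at -0.16, Npy at -0.07), oligodendrocyte markers 0 of 13 with 1 positive (Opalin, 0.69), Mobp at -0.16 and a median of 0.0029, and microglia markers 0 of 11 with 1 positive (Aif1, 0.31), Cx3cr1 at 0.11 and a median of -0.07. The summed microglia list, led by Itgam, had a median log2 ratio of 0.10 at hour 5 and 0.03 at hour 9, and that of interneurons, led by Cck, 0.04 and 0.04. The sum of the oligodendrocyte list is not given.

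Mfsd2a belongs to the endothelium of the blood-brain barrier, whose marker genes did not pass. Of 13 endothelial and mural genes 0 passed and 4 were positive at an unadjusted p under 0.05 (Cldn5, Tek, Kcnj8 and Kdr), as were 2.54% of bright probes, with a median of 0.11 and Cldn5, a tight junction protein, at 0.35 (adjusted p 0.156). Their sum, led by Ly6c1, had a median log2 ratio of -0.11 at hour 5 and -0.05 at hour 9. Blood markers gave 0 of 9 with 1 negative and 2 positive at the unadjusted level and a median of -0.32, with the globin gene Hbb-bt at -0.41 (adjusted p 0.907). The positive ones were the dim S100a8 and S100a9. The blood sum, led by Hba-a1, had a median log2 ratio of 0.38 at hour 5, over arrays from -0.46 to 0.82, and of 0.07 at hour 9, over arrays from -0.57 to 0.81. Choroid plexus markers gave 0 of 12 (median 0.05, Ttr at 0.74 and Clic6 at 0.29, each with an adjusted p of 1), with a summed ratio of -0.07 and then 0.07, and thalamus markers 0 of 6 (median 0.0005, Prkcd at -0.26 and Slc17a6 at -0.16), with -0.03 and 0.03. None of either list had an unadjusted p under 0.05. The part of these shifts in the result was not tested.

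At the edge of the threshold, the dim probe A_55_P2721309 (adjusted p 0.0419) and Klf9 were the last inside it, and the first outside were Sdc4, Cyyr1 (0.50, adjusted p 0.0552), Zfp189 (adjusted p 0.0559) and Fam220a (adjusted p 0.0608). Of the probes that passed, 3 were dim (Olfr803, Grip1os2 and A_55_P2721309), and no size is read from them. A further 5 bright probes carry no gene name, with changes of -0.67 (A_55_P1999902), -0.47 (A_66_P110576), -0.84 (A_55_P2715111), -0.30 (A_51_P439836) and -0.65 (A_66_P124914). The named genes have 24 other probes on the array, and none of them passed. Their changes had the sign of the named probe except for Alpl, Tsc22d3 and Atp10a, given beside those genes.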

How the data were processed

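The authors scanned Agilent 2-colour arrays and deposited for each spot median pixel fluorescence intensity of both channels with its local background, in scanner units and not normalized. The deposited processed signals are intensities with background subtracted and dyes balanced by the scanner software. The authors' table holds log2 ratios of Cy5 over Cy3 per probe, and its column medians lie between 0.00239 and 0.00889. For its own analysis the paper describes loess scaling within arrays and quantile scaling between them. The other deposited columns are marks of the scanner software (saturated, outlier, well above background), which have no unit.

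Intensities were corrected by normexp, scaled by loess within and by quantiles between arrays, and control spots were removed; spots with an outlier mark were left out. A separate channel fit in limma over all 24 arrays (48 channels, 6 groups, intraspot correlation 0.286) gave the p values from an offset of 50 and log2 values with SE from an offset of 0, adjusted over 56605 probes. 77 probes lacked a spot, 0 of them among those that passed. The authors' ratios differ in size from ratios with an offset of 50 by a median of 0.0101. A current symbol was found for 34566 probes and none for 22039. Promoters came from RefSeq, build GRCm38.p6.

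Genes named are those past the threshold with intensity of at least 50: the 30 with the smallest p with values, the rest by name, other than Fgfr3, Alpl and Klf9, which are members of lists, and Smox, whose slide values were added after they were seen. Of each list the members past the threshold are named with some others of small p, and of the reversed list all. Sult1a1, Ciart, Dbp, Aqp4, Aldh1l1 and the motif-bearing windows were chosen after their values were seen. The members and lists were chosen with earlier results of these data known. R 4.3.3, limma 3.58.1 and statmod 1.5.0 were used.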

Additional observations from a re-analysis of the deposited data

Results flagged for a closer look

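Within an hour, 78 groups of 8 log2 ratios were searched for an array far from the rest, and chance alone would give about 1 in 20. There were 3: Spns2 at hour 9 was -0.0075 in replicate 6 against -0.2322 to -0.1258 in the other arrays, Atp10a at hour 9 was -0.9977 in replicate 8 against -0.5608 to -0.1708, and Alpl at hour 9 was -0.6519 in replicate 8 against -0.1998 to 0.0632. The Atp10a and Alpl values come from the same array of slide 3.

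The difference between the hours was tested for every probe, and the corticosterone effect differed at 46. Among named genes, 11 had an effect past the threshold in opposite directions at hours 5 and 9. Their changes were -0.82 for Mt2, -0.44 for Arhgap39, -0.37 for Spns2, -0.37 for Arhgef3, 0.52 for Fgfrl1, -0.97 for Mc4r, -0.54 for Zbtb16, -0.39 for Gpr161, -1.01 for Atp10a, -0.58 for Fkbp5 and -1.75 for Hif3a. The direction within an hour holds any constant dye bias.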

How the results depend on the processing

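All 46 probes kept the sign of their change under every alternative but the processed signals of the scanner software, where 45 did, and no named gene reversed. The number of probes with a changed corticosterone effect, 46 in the fit described, was 42 with an offset of 0, 46 without background correction, 48 with median centring, 52 and 55 with other or no scaling between arrays, 59 with the processed signals, 53 from log ratios alone (31 shared), 59 from the authors' ratios (34 shared), 58 with the 16 arrays alone and 45 with a variance trend. With slide as a block it was 46 (37 shared), and 34 (25 shared) from log ratios, where 7 and 15 of the 38 named probes lost the threshold. Of 39 alternatives for each named probe, of which the values within each slide have no test, Klf9 missed the threshold in 25, Smox in 21 and Nr3c1 and Alpl in 20 each, and the others in fewer. The split moved where probes were filtered: with intensity of at least 50 it was 94 (74.5% more negative, against 87%), and with probes well above background 82 (75.6%), where fewer probes are adjusted over. In the fit without slide 1 it was 0, without slide 3 6 (5 shared) and without slide 2 50, on fewer arrays and with 2532, 2546 and 3273 at an unadjusted p under 0.05. Leaving out single arrays gave 29 to 70, with 28 to 44 shared. The cause of these moves was not tested. The median change of all bright probes lay between -0.0016 and 0.0091 over the alternatives. The median of the hour 1 responders stayed between 0.434 and 0.468 at hour 5 and between 0.164 and 0.246 at hour 9. Signal over background limits the dim probes, and the change of single dim probes is not given.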
